A study of Mus musculus with 13 samples.

Results

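The genes described here are targets and regulators of the sterol regulatory element binding proteins (SREBPs), the transcription factors that set the supply of cholesterol and fatty acids in a cell. They were chosen by name: 32 gene symbols, 23 in a sterol arm (Hmgcs1 to Mbtps1) and 9 in a fatty acid arm (Srebf1 to Fads2), and all 32 were found among the 22656 genes of the table. RNA came from B16F10-TR-shApoe cells, a mouse B16F10 melanoma derivative with a hairpin against its own Apoe, so every library of either group shares that hairpin. Each mouse received 100000 cells through the tail vein. On day 15 the lungs were digested, and cells that excluded a viability dye, carried GFP and lacked CD45 were sorted as tumour cells. The hosts were knock-in mice with the APOE2 allele (8 mice, 1 library each) or the APOE3 allele (5 mice, 1 library each). The labels give neither the age nor the sex of the mice, and they name no host without a knock-in allele. The comparison asks how RNA of this pathway in the sorted tumour cells differed with the apolipoprotein E allele of the host.

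SREBPs are made as precursors in the membrane of the endoplasmic reticulum, where they are bound by SCAP. When membrane sterol is scarce, SCAP carries the precursor to the Golgi apparatus, and proteases, the site-1 protease encoded by Mbtps1 among them, release the active factor. When sterol is plentiful, INSIG proteins hold SCAP back and the target genes are little transcribed. The protein encoded by Srebf2 acts mainly on cholesterol synthesis and uptake, and the main product of Srebf1 acts mainly on fatty acid synthesis and desaturation. Apolipoprotein E is a ligand through which cells take up cholesterol-rich lipoproteins.

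Recovered reads ranged from 7080308 to 13039989 per library. Of the 38 pairs of libraries within a group 0 were identical, and the chi-square of their reads per degree of freedom, about 1 for counting noise alone, was 13.6 to 69.2. Pairs that held APOE3 replicate 2 gave 41.4 to 69.2. The other APOE3 pairs gave 23.9 to 33.2, and the APOE2 pairs 13.6 to 42.5. Apoe itself ran from 1217 to 2101 normalised counts in APOE2 hosts and from 1193 to 2369 in APOE3 hosts. The melanocyte markers (8 of 8 in the table) summed to 349508 to 507231 normalised counts in APOE2 and 277017 to 385939 in APOE3 hosts, and 0 of the 8 passed the test. Dct was the largest part of that sum, at 176606 to 323071 in APOE2 and 101484 to 208301 in APOE3 hosts. Its log2 fold change was 0.64 (APOE2 minus APOE3). Of the 8 markers, 5 were above 0 on that scale and 3 below. Gm42418, an RNA resembling ribosomal RNA, took 0.662% to 2.17% of reads in APOE2 libraries and 1.11% to 3.74% in APOE3 libraries, the highest share being in APOE3 replicate 2.

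SREBPs bind sterol regulatory elements in promoters, usually beside a box bound by the factor NF-Y. Of the 11 members with an unadjusted limma p-value under 0.05, 6 had a window with such letters. Acat2 and Acaca had a window without them, and Scd1, Sqle and Fdps had no window. The promoters of 4 of the 6 are shown as examples, from an early and a late sterol enzyme, a factor and a fatty acid enzyme. Tm7sf2 and Acly, with 1 NF-Y box each, are not shown. Each window runs from 250 bases before to 50 after a gene start (RefSeq, GRCm38.p6) and is written 5′ to 3′ along the gene's strand. Capitals mark matches to the element TCACNCCAC or to the NF-Y box CCAAT on either strand (CCAAT reads as ATTGG on the other strand).

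Hmgcs1, chr13:119690101-119690400, plus strand: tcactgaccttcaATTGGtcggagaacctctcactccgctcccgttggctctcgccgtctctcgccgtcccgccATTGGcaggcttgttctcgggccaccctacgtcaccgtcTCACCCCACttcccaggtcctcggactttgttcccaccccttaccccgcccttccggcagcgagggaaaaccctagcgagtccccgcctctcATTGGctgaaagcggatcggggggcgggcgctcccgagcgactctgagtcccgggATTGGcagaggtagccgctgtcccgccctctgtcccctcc
Nsdhl, chrX:72918271-72918570, plus strand: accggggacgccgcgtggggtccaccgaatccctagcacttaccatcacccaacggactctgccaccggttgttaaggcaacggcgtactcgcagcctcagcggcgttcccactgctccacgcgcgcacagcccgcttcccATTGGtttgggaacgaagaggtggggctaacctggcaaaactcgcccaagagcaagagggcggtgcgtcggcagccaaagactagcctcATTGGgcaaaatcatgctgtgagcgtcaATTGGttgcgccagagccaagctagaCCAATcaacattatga
Srebf2, chr15:82147019-82147318, plus strand: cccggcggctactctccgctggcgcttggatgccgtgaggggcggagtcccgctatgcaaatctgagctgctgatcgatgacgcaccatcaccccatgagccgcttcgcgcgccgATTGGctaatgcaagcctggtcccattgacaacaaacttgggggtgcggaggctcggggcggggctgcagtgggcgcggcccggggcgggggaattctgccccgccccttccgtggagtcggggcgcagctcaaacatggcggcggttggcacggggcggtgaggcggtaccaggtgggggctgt
Fasn, chr11:120824498-120824797, minus strand: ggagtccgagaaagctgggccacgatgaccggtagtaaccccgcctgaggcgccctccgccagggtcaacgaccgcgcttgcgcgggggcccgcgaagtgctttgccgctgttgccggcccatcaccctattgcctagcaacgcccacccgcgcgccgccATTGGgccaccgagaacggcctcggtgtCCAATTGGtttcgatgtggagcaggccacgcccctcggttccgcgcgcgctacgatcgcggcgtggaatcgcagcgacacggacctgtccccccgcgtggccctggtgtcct

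In the Hmgcs1 window the sterol element TCACCCCAC begins 137 bases before the start, with NF-Y boxes beginning 237, 176 and 45 bases before it and 11 bases into the transcript. The Nsdhl window holds 4 NF-Y boxes, that of Fasn holds 3, of which 2 overlap by 2 letters, and that of Srebf2 holds 1. Windows were found for 25 of the 32 members, 19 in the sterol and 6 in the fatty acid arm. The NF-Y box was in at least 1 window of 19 of these 25 members (76.0%), against 41.1% of the 27025 genes with a window. By arm it was in 16 of 19 sterol genes and 3 of 6 fatty acid genes. The strict sterol element was in 1 of the 25, Hmgcs1, and in 1.44% of all genes. Such matches describe letters in these windows and are no evidence of binding. For Hmgcs1, Nsdhl and Srebf2 the RefSeq start, from which these distances are counted, differs from the start of the GENCODE gene model.

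Values were compared as log2(normalised count + 1) with limma over the 12403 genes that had a mean of at least 10 normalised counts. Of the 32 members 31 passed that filter, and Idi1 did not. In APOE2 hosts 25 of the 31 had a log2 fold change below 0, against 49.9% of all genes tested, and the median was −0.23, against 0.00037 for all genes. In the sterol arm 20 of 22 were below 0 with a median of −0.26, and in the fatty acid arm 5 of 9 with a median of −0.17. A single member, Scd1, passed the adjusted threshold of 0.05, with lower values in APOE2 hosts. Of all genes tested, 0.79% passed it in either direction and 0.379% passed it with lower values in APOE2 hosts. At an unadjusted limma p-value under 0.05, 11 members were lower (7 sterol, 4 fatty acid), where 6.71% of all genes were, and 0 were higher, where 7.51% of all genes were. Groups without overlap, with the highest APOE2 library under the lowest APOE3 library, were found in 0 members and in 0.508% of the genes tested. Some markers of lung epithelium and other lung cells also passed the threshold as lower in APOE2 hosts, with their values given beside Scd1.

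**Figure D1:**
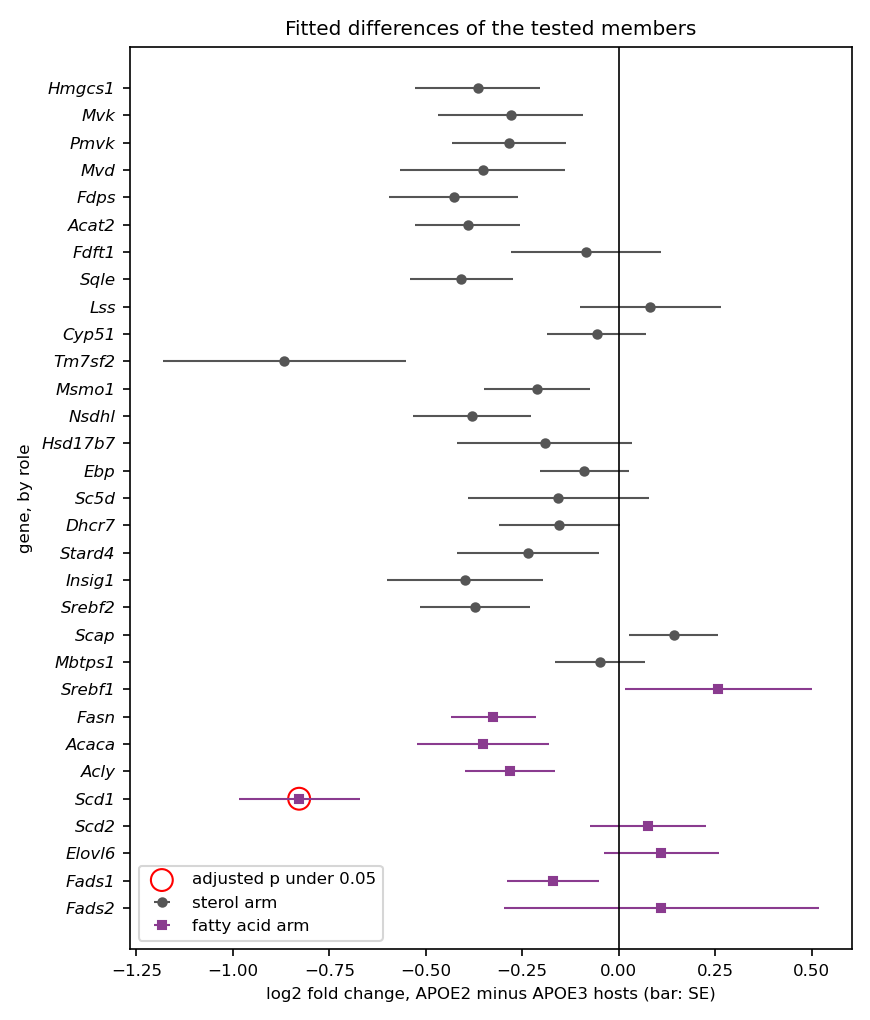
Fitted log2 fold change (horizontal axis, APOE2 minus APOE3 hosts) of the 31 tested members, ordered by role on the vertical axis; circles are sterol genes, squares fatty acid genes, and bars are standard errors. Most sterol genes lie left of 0, Scd1 is the member circled as past the threshold, and the other squares fall on either side of 0.

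The early steps build isoprenoid units from acetyl-CoA. All 6 tested genes of these steps were below 0, from −0.43 to −0.28, although 0 passed the adjusted threshold. Gene positions are given on GRCm38. Acat2 (ENSMUSG00000023832, chr17:12942890-12960747, minus strand), the cytosolic thiolase that joins acetyl-CoA units, ran from 722 to 1193 normalised counts in APOE2 hosts with a median of 1001. The APOE3 libraries 1 to 5 gave 1379, 1726, 1276, 1189 and 983. All 8 APOE2 libraries lay under the APOE3 median and 3 APOE3 libraries lay above every APOE2 library, but APOE3 replicates 4 and 5 fell among the APOE2 values. The fitted log2 difference was −0.39 ± 0.14 (SE; limma adjusted p = 0.191).

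Fdps (ENSMUSG00000059743, chr3:89093588-89101959, minus strand), which makes farnesyl diphosphate, ran from 232 to 416 normalised counts in APOE2 hosts with a median of 348. In the APOE3 libraries it was 425, 595, 377, 416 and 396. Of the 8 APOE2 libraries 7 lay below every APOE3 library, and APOE3 replicate 2 stood above the other 4 of its group. In limma this was a log2 fold change of −0.43 ± 0.17 (SE; adjusted p = 0.246). Hmgcs1, the synthase at the entry to the mevalonate pathway, had a log2 fold change of −0.37 ± 0.16 (SE). It ran from 924 to 1555 normalised counts in APOE2 hosts, while 4 of the APOE3 libraries lay between 1507 and 1982 and replicate 5 was at 912, below all APOE2 libraries. The kinases Mvk and Pmvk and the decarboxylase Mvd, which act in sequence on mevalonate, had log2 fold changes of −0.28, −0.29 and −0.35. Mvk ran from 181 to 285 normalised counts in APOE2 and 209 to 420 in APOE3 hosts, Pmvk from 256 to 383 and 321 to 417, and Mvd from 219 to 493.1 and 248.7 to 673. For Pmvk all 8 APOE2 libraries lay under the APOE3 median. Idi1, the isomerase that follows, was below the filter, at 0 to 8.18 normalised counts in APOE2 and 4.71 to 21.9 in APOE3 hosts.

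The middle steps join farnesyl units into squalene and close the ring. Sqle (ENSMUSG00000022351, chr15:59315077-59331192, plus strand), the monooxygenase that acts on squalene and a rate-limiting step of the later pathway, had the smallest p-value of the sterol arm. It ran from 483 to 716 normalised counts in APOE2 hosts with a median of 569. In APOE3 hosts the libraries gave 866, 774, 868, 695 and 661. All APOE2 libraries were under the APOE3 median, 6 of the 8 were under the lowest APOE3 library, and the groups overlapped between 661 and 716. On the log2 scale the difference was −0.41 ± 0.13 (SE), or a mean 1.33-fold as high in APOE3 hosts, and it did not pass (limma adjusted p = 0.161). Its neighbours in the pathway had values nearer 0. Squalene synthase, Fdft1, was at −0.085 ± 0.19 (SE, log2 fold change), and lanosterol synthase, Lss, at 0.082 ± 0.18 (SE). The sign of Fdft1 turned without APOE3 replicate 4 (0.093) and that of Lss without APOE3 replicate 5 (−0.066). Fdft1 ran from 205 to 329 normalised counts in APOE2 and 187 to 438 in APOE3 hosts, and Lss from 260.3 to 485 and 234 to 440.2, so both groups overlapped widely.

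The late steps convert lanosterol to cholesterol. All 8 genes were below 0, from −0.87 to −0.057, and 0 passed the adjusted threshold. Tm7sf2 (ENSMUSG00000024799, chr19:6062821-6068373, minus strand), a sterol reductase, had the lowest fold change of the arm but also few reads. It ran from 33.1 to 129 normalised counts in APOE2 hosts with a median of 59.8, and the APOE3 libraries gave 157, 108, 121, 102 and 77.5. Of the APOE2 libraries 6 lay below every APOE3 library, while APOE2 replicate 7, at 129, exceeded 4 of the 5 APOE3 libraries. Its log2 fold change of −0.87 ± 0.31 (SE) did not pass (limma adjusted p = 0.209).

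Nsdhl (ENSMUSG00000031349, chrX:72918557-72958514, plus strand), a dehydrogenase of sterol demethylation, ran from 491 to 834 normalised counts in APOE2 hosts with a median of 736. The APOE3 values were 1072, 1173, 844, 875 and 633. All but replicate 5 of the APOE3 libraries lay above every APOE2 library. The fitted log2 difference was −0.38 ± 0.15 (SE; limma adjusted p = 0.264). The partner genes of the same demethylation, Msmo1 and Hsd17b7, had log2 fold changes of −0.21 and −0.19. Msmo1 ran from 1969 to 3114 normalised counts in APOE2 and 2280 to 4004 in APOE3 hosts. For Hsd17b7 the APOE3 libraries spread from 139 to 418 normalised counts against 157 to 232 in APOE2 hosts, and without APOE3 replicate 1 the fold change was 0.030. The isomerase Ebp, the desaturase Sc5d and the reductase Dhcr7 had values of −0.089, −0.16 and −0.15. Ebp ran from 671 to 907 normalised counts in APOE2 and 772 to 1020 in APOE3 hosts, Sc5d from 204 to 500.1 and 183 to 484, and Dhcr7 from 258 to 404 and 280.0 to 423. Cyp51, the lanosterol demethylase, had the value closest to 0, at −0.057 ± 0.13 (SE), and it was 0.0017 without APOE3 replicate 4. Its ranges nearly coincided, at 1734 to 2604 normalised counts in APOE2 and 1705 to 2607 in APOE3 hosts.

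Stard4, which carries sterol between membranes, had a log2 fold change of −0.23 ± 0.18 (SE), with 168 to 337 normalised counts in APOE2 and 229 to 411 in APOE3 hosts. Among the genes that sense sterol and process the factor, 3 of 4 were below 0. Srebf2 (ENSMUSG00000022463, chr15:82147181-82205379, plus strand) ran from 799 to 1570 normalised counts in APOE2 hosts with a median of 1161. In APOE3 hosts it was at 1429, 1700, 1276, 1703 and 1439. Of the APOE2 libraries 5 lay below every APOE3 library. In limma its log2 fold change was −0.37 ± 0.14 (SE; adjusted p = 0.230). Insig1 (ENSMUSG00000045294, chr5:28071363-28078662, plus strand), a retention protein whose gene is itself a target of the pathway, ran from 128 to 303 normalised counts in APOE2 hosts with a median of 262, and the APOE3 libraries gave 407, 313, 346, 281 and 222. All APOE2 libraries were under the APOE3 median, and the fold change was −0.40 ± 0.20 (SE; limma adjusted p = 0.374).

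Neither the carrier nor the protease passed, and both were nearer 0. Scap (ENSMUSG00000032485, chr9:110333288-110384950, plus strand) ran from 1236 to 1602 normalised counts in APOE2 hosts with a median of 1287, and the APOE3 libraries gave 1414, 1002, 990, 1359 and 1278. APOE3 replicates 2 and 3 were the lowest of all libraries, and the fold change of 0.14 ± 0.12 (SE) became −0.033 without them. Mbtps1 (ENSMUSG00000031835, chr8:119508156-119558735, minus strand) ran from 613 to 917 normalised counts in APOE2 hosts with a median of 738, and the APOE3 libraries gave 734, 809, 766, 817 and 734. Its fitted difference was −0.049 ± 0.12 (SE, log2), and the APOE3 libraries lay within the APOE2 range.

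**Figure D2:**
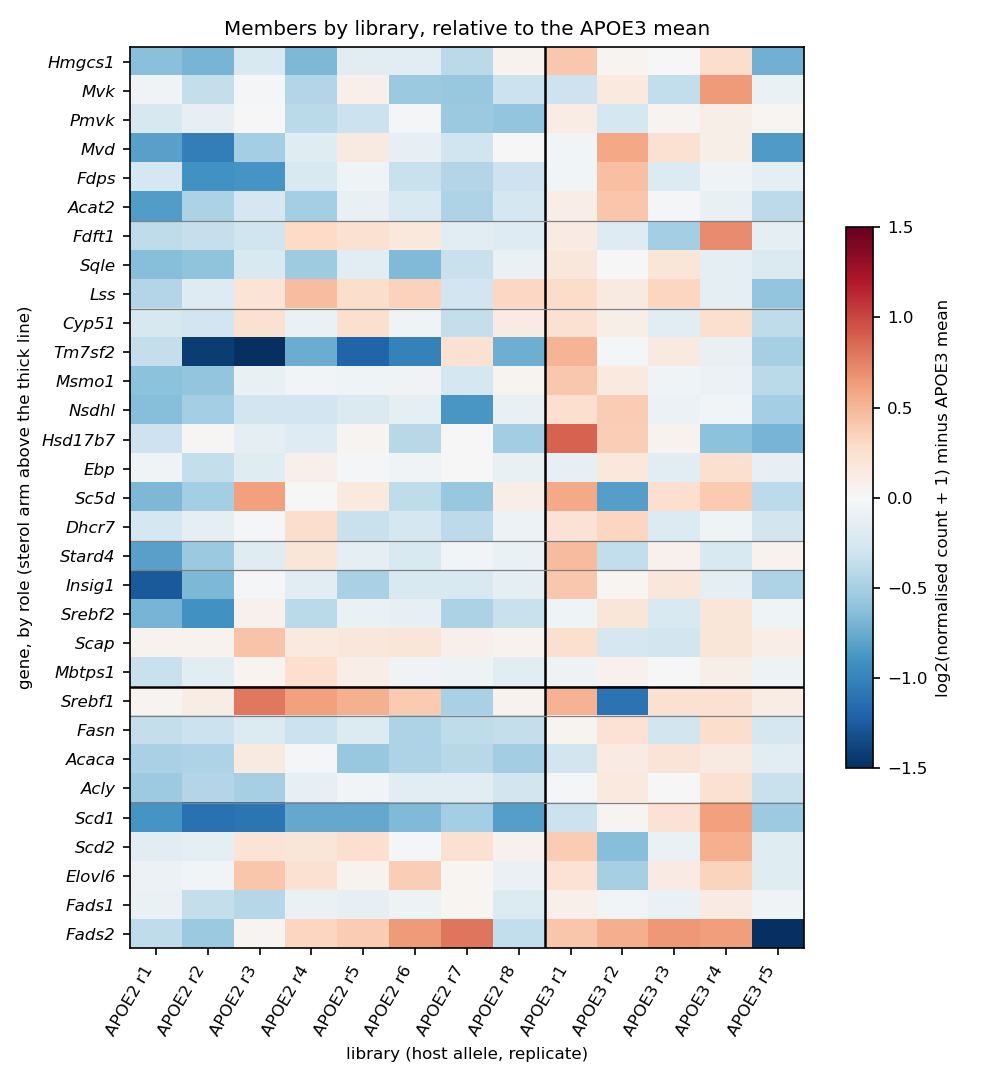
Each tested member (rows, by role, sterol arm above the thick line) in each of the 13 libraries (columns), coloured by its log2(normalised count + 1) minus the mean of the APOE3 libraries; colours saturate at 1.5 in either direction. Blue prevails in the APOE2 columns of the upper rows and in Scd1, APOE3 replicate 5 is blue in many sterol rows, and APOE3 replicate 2 is blue in Srebf1, Scd2 and Elovl6.

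The mean log2 value of each arm in each library shows which libraries carried these differences. The 22 sterol genes averaged 8.92 ± 0.15 in the APOE2 libraries (SD, n = 8) and 9.17 ± 0.20 in the APOE3 libraries (SD, n = 5). The APOE2 libraries ran from 8.68 to 9.08. The APOE3 libraries 1 to 4 were at 9.38, 9.24, 9.13 and 9.23, all above every APOE2 library, while replicate 5 was at 8.86 and inside the APOE2 range. The 9 fatty acid genes averaged 9.48 ± 0.15 in the APOE2 libraries (SD, n = 8) and 9.63 ± 0.29 in the APOE3 libraries (SD, n = 5). The APOE2 libraries ran from 9.26 to 9.64, and the APOE3 libraries were at 9.75, 9.50, 9.74, 9.98 and 9.21. Thus 3 APOE3 libraries lay above the APOE2 range, and replicate 5 lay below it. Without Scd1 the group difference of the fatty acid mean went from −0.16 to −0.072. No test was made of these means, because the genes were listed with results known.

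**Figure D3:**
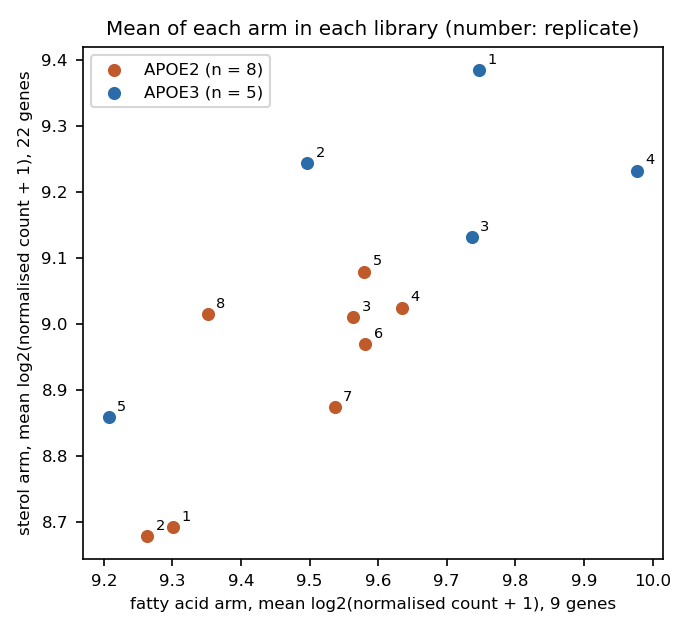
Mean log2(normalised count + 1) of the 9 fatty acid genes (horizontal axis) and of the 22 tested sterol genes (vertical axis) in each library; numbers are replicates. APOE3 replicates 1 to 4 lie above all APOE2 libraries on the vertical axis, and APOE3 replicate 5 lies at 8.86, among them.

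The arms were set side by side without a test of their difference. The sterol median minus the fatty acid median was −0.086, and without APOE3 replicate 5 it was 0.056. The share of genes below 0 was 90.9% in the sterol arm and 55.6% in the fatty acid arm. The second share rested on 1 library: without APOE3 replicate 2, 8 of the 9 fatty acid genes were below 0. The genes that turned sign stayed near 0, with Srebf1 at −0.019, Scd2 at −0.084 and Elovl6 at −0.015. Of the 20 sterol genes below 0, 17 kept that sign whichever library was left out, as did all 5 such fatty acid genes.

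The fatty acid arm begins with the enzymes that make palmitate from citrate. All 3 were below 0 and all 3 had an unadjusted limma p-value under 0.05, with Acaca at 0.0499. Of all genes tested, 6.71% were lower at that level. At the adjusted threshold 0 of the 3 passed. Fasn (ENSMUSG00000025153, chr11:120805846-120824547, minus strand), fatty acid synthase, had the lowest spread of the members in APOE2 hosts. It ran from 1664 to 2005 normalised counts there with a median of 1822 and a coefficient of variation of 6.27%. Its APOE3 values were 2370, 2682, 1898, 2776 and 1936. Replicates 1, 2 and 4 lay above every APOE2 library, and replicates 3 and 5 fell among the APOE2 values. The fit gave a log2 fold change of −0.33 ± 0.11 (SE; limma adjusted p = 0.171).

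Acly (ENSMUSG00000020917, chr11:100476353-100528000, minus strand), which splits citrate into acetyl-CoA, ran from 1666 to 2372 normalised counts in APOE2 hosts with a median of 2088. The APOE3 libraries gave 2395, 2694, 2423, 2854 and 1937, so 4 of 5 lay above every APOE2 library. In limma the difference was −0.28 ± 0.12 (SE, log2; adjusted p = 0.274). Acaca (ENSMUSG00000020532, chr11:84129672-84401651, plus strand), acetyl-CoA carboxylase, ran from 191 to 312 normalised counts in APOE2 hosts with a median of 206. In APOE3 hosts the values were 235, 310, 325, 312 and 252. Of the APOE2 libraries 6 lay below every APOE3 library. The fitted log2 difference was −0.35 ± 0.17 (SE; limma adjusted p = 0.351).

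Scd1 (ENSMUSG00000037071, chr19:44394455-44407879, GRCm38, minus strand) encodes stearoyl-CoA desaturase, which puts the double bond into oleate and palmitoleate, and its RNA fell in APOE2 hosts. It ran from 689 to 1057 normalised counts in APOE2 libraries with a median of 865, a mean of 852 ± 122 (SD, n = 8). The 5 APOE3 libraries had 1198, 1538, 1747, 2307 and 1025, a mean of 1563 ± 503 (SD, n = 5). APOE3 replicates 1 to 4 lay above every APOE2 library, and 7 of 8 APOE2 libraries lay below every APOE3 library. The single overlap was between APOE2 replicate 7, at 1057, and APOE3 replicate 5, at 1025. In limma the log2 fold change was −0.83 ± 0.16 (SE; adjusted p = 0.0175), a 1.78-fold level in APOE3 relative to APOE2 hosts. The call was lost without APOE3 replicate 3 (adjusted p = 0.0595) and without APOE3 replicate 4 (0.05065), where the fold changes were −0.77 and −0.67.

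Scd2 (ENSMUSG00000025203, chr19:44293674-44306864, GRCm38, plus strand) lies near Scd1, with Scd4 between them, and encodes a desaturase of the same activity. It did not pass the test. It ran from 8514 to 11444 normalised counts in APOE2 hosts with a median of 10473, and the APOE3 libraries gave 12536, 6174, 8975, 13942 and 8487. The APOE3 libraries spread to either side of the APOE2 range, and the log2 fold change was 0.076 ± 0.15 (SE; limma adjusted p = 0.864). It became −0.084 without APOE3 replicate 2. Within a library the log2 value of Scd1 minus that of Scd2 averaged −3.58 ± 0.21 in the APOE2 libraries (SD, n = 8) and −2.68 ± 0.55 in the APOE3 libraries (SD, n = 5). That difference lay below every APOE3 value in 7 of 8 APOE2 libraries. How reads shared by the desaturase copies were assigned is not given in the sources used here.

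**Figure D4:**
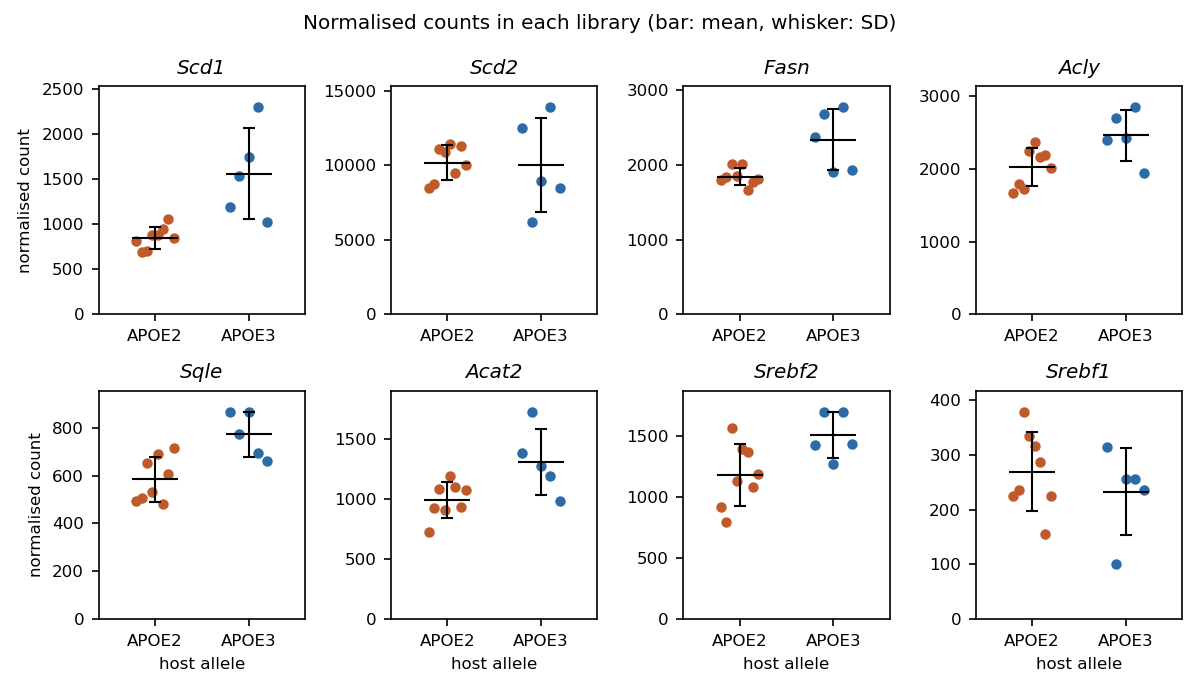
Normalised counts (vertical axes, from 0) of 8 members in the 8 APOE2 and 5 APOE3 libraries; points are libraries, the bar is the mean and the whisker the SD. In Scd1 the APOE3 points run from 1025 to 2307 and all but the lowest lie above the APOE2 points, whereas in Scd2 the APOE3 points spread to either side of the APOE2 points and in Srebf1 replicate 2 lies below them.

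Alveolar type 2 cells of the lung make surfactant lipid and express Scd1 and other genes of lipid synthesis, so markers of lung epithelium were read beside it. All 15 markers were in the table and 11 were tested. All 11 had log2 fold changes below 0, and 6 passed the limma threshold as lower in APOE2 hosts: Sftpd, Sftpc, Sftpb, Slc34a2, Sftpa1 and Napsa. Scgb1a1 nonetheless had the higher mean normalised count in APOE2 hosts (157 against 29.5), with APOE2 replicate 2 at 1065. The 15 summed to 822 to 4195 normalised counts in APOE2 and 3591 to 21509 in APOE3 libraries, and Epcam was at 0 in most libraries. Hopx, Krt8 and Krt18, like Epcam, were too low to test. Whether the marker RNA came from epithelial cells among the sorted cells was not tested. A difference in number of such cells and one in RNA per cell cannot be told apart. APOE3 replicate 4 had both the highest marker sum and the highest Scd1 value. It also had the highest sums of leukocyte (12332), endothelial (1593), fibroblast and smooth muscle (1829) and fat cell (313) markers, described below. APOE3 replicate 1, with a marker sum of 3591 inside the APOE2 range, had 1198 Scd1 counts, above every APOE2 library. APOE3 replicate 5, with a sum of 12368, had 1025. APOE3 replicates 2 and 3, with sums of 8179 and 13213.5, had 1538 and 1747.

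Within the 8 APOE2 libraries, Scd1 and the marker mean gave Pearson r = 0.19 (exact permutation p = 0.647, two-sided) and Spearman rho = −0.071 (exact permutation p = 0.882). This was the only such relation computed, and r was −0.091 without the 2 libraries farthest from the median marker mean. The 8 libraries spanned marker sums of 822 to 4195, so the relation cannot address the higher sums of most APOE3 libraries. With the marker mean as a covariate the log2 fold change of Scd1 was −0.57 ± 0.23 (SE), with a limma adjusted p = 0.675. In that limma fit 0 genes of the whole table passed, and 861 of 12403 had an unadjusted p-value under 0.05 in either direction. At that level 12 of the 31 members tested were lower and 0 higher. The sterol median in that fit was −0.55, against −0.26 without the covariate and 0.021 over all genes in the same fit. All 22 sterol genes were below 0, with 0 past the threshold. The fatty acid median was −0.13, against −0.17. The covariate itself differed between the groups, and the standard error of Scd1 rose from 0.16 to 0.23.

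Endothelial markers summed to 484 to 662 normalised counts in APOE2 and 590 to 1593 in APOE3 libraries (9 of 9 tested markers below 0, 1 past the threshold). Of 12 leukocyte markers 7 were tested, all 7 were below 0, and Lyz2 and Cd74, which alveolar type 2 cells also express, passed the threshold. The leukocyte list summed to 450 to 2478 normalised counts in APOE2 and 1979 to 12332 in APOE3 libraries, and most of this in the APOE3 libraries was Lyz2 alone (186 to 2119 and 1506 to 11891). Without Lyz2 the other 11 summed to 185 to 557 and 377 to 510, so the APOE3 range of that sum lay inside the APOE2 range. Cd74, a small part of that sum, ran from 6.06 to 48.7 in APOE2 and 69.5 to 140 in APOE3 libraries. Ptprc, which encodes the CD45 removed by the sort, was too low to test (1.01 to 16.4 and 4.21 to 38.5), and Cd3e and Cd79a were at 0 in most libraries. Fibroblast and smooth muscle markers summed to 51.5 to 428 and 236 to 1829 (5 of 5 tested below 0, 1 past the threshold, Tagln at 0 in most libraries). Fat cells also carry this pathway, and of their 7 markers Adipoq, Plin1, Plin4, Cidec and Cfd were at 0 in most libraries. The fat cell markers summed to 23.7 to 121 in APOE2 and 23.2 to 313 in APOE3 libraries. The part of any of these cell types in the sterol and fatty acid values was not tested beyond the epithelial covariate.

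**Figure D5:**
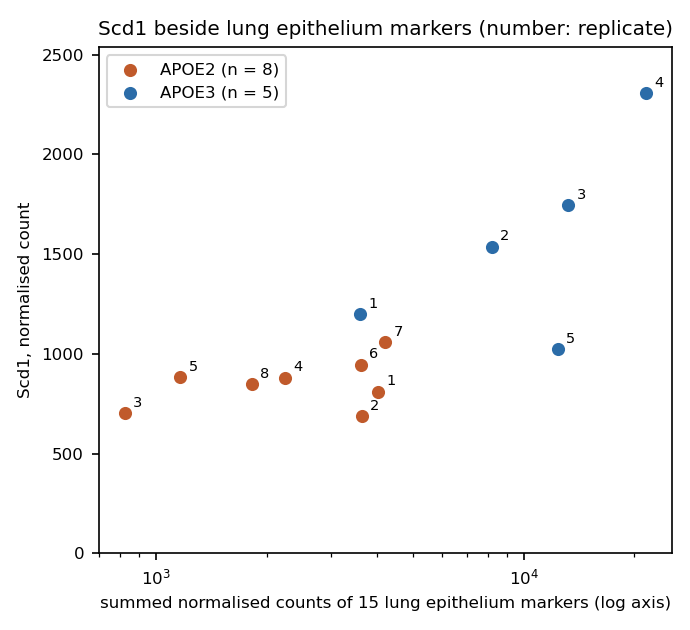
Normalised counts of Scd1 (vertical axis) against the summed normalised counts of 15 lung epithelium markers (horizontal log axis) in each library; numbers are replicates. APOE3 replicate 4 is highest on both axes, APOE3 replicate 1 lies above the APOE2 libraries at a similar marker sum, and APOE3 replicate 5 has a high sum with 1025 Scd1 counts.

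The other enzymes that modify fatty acids did not pass the test. Elovl6, which lengthens palmitate, had a log2 fold change of 0.11 ± 0.15 (SE), and −0.015 without APOE3 replicate 2. The desaturases of polyunsaturated fatty acids, Fads1 and Fads2, had −0.17 ± 0.12 and 0.11 ± 0.41 (SE). Elovl6 ran from 514 to 733 normalised counts in APOE2 and 388 to 694 in APOE3 hosts, and Fads1 from 478 to 657 and 602 to 701. For Fads2 the value rested on APOE3 replicate 5, at 13.9 normalised counts against 91.6 to 108 in the other 4 APOE3 libraries and 46.4 to 121 in APOE2 hosts. Without that library its fold change was −0.45.

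Srebf1 (ENSMUSG00000020538, chr11:60199089-60222581, minus strand), the factor of the fatty acid arm, ran from 154 to 379 normalised counts in APOE2 hosts with a median of 261. The APOE3 libraries were at 314, 101, 256, 255 and 236. Replicate 2 stood apart, and the other 4 lay inside the APOE2 range. The log2 fold change was 0.26 ± 0.24 (SE; limma adjusted p = 0.672), and −0.019 without APOE3 replicate 2. The same library had the lowest Scd2, Elovl6 and Sc5d values of all 13 and the highest Fdps, Mvd, Acat2, Nsdhl and Dhcr7 values. It was also the library with the largest share of Gm42418 reads, and the part of that share in these values was not tested.

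A further list held 36 genes linked to the pathway that are not members, of which 34 were in the table and 28 were tested. Of these 16 were below 0 (57.1%, against 49.9% of all genes tested) and 12 above, with a median of −0.042. At the adjusted threshold 0 passed, where 0.79% of all genes did. At an unadjusted limma p-value under 0.05, 4 were lower (14.3%, against 6.71% of all genes) and 2 higher, where 7.51% of all genes were. The 4 genes with the smallest p-values include a pair that handle cholesterol leaving the lysosome, where lipoprotein cholesterol arrives in the cell. Npc1 ran from 454 to 812 normalised counts in APOE2 hosts with a median of 584, and the APOE3 libraries gave 837, 887, 890, 835 and 843. The highest APOE2 library thus lay under the lowest APOE3 library. The difference of −0.51 ± 0.13 (SE, log2) missed the threshold (limma adjusted p = 0.0675). Npc2 had a fold change of −0.31 ± 0.11 (SE; limma adjusted p = 0.191).

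Elovl1, which lengthens very long fatty acids, ran from 351 to 620 normalised counts in APOE2 hosts with a median of 492. The APOE3 libraries were at 662, 873, 741, 665 and 621, again with no overlap. The log2 fold change of −0.53 ± 0.14 (SE) also missed it (limma adjusted p = 0.0696), and was −0.24 with the epithelial covariate. Groups without overlap, with APOE2 hosts lower, were found in 2 of the 28 further genes and in 0.508% of all genes tested. Npc1 and Elovl1 were named for their small p-values, which favours such a gap. Insig2, the second retention protein and one not induced by SREBPs in most cells, went in the opposite direction to Insig1. It ran from 1157 to 1591 normalised counts in APOE2 hosts with a median of 1280, and the APOE3 libraries gave 894, 1006, 1321, 885 and 1108. Of the 5 APOE3 libraries 4 lay below every APOE2 library, and the fold change was 0.36 ± 0.12 (SE; limma adjusted p = 0.161).

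Counting rules bear on some of these values. Exons of 11 members overlap those of another gene, 4 on the same strand and 8 on the opposite one, and the strand setting of the counting is not given. The same-strand cases are Fdps (Gm43738), Tm7sf2 (Vps51), Scd2 (Mir5114) and Srebf1 (Mir6922), and Srebf1 also overlaps Rai1 on the opposite strand. Reads in such stretches could have been given to either gene or to neither. Of the further genes named, Npc1 (Gm15956 and Rmc1) and Elovl1 (Cdc20) also overlap others, on the opposite strand.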

How the data were processed

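Per the labels' protocols, total RNA of the sorted cells went into QuantSeq FWD libraries, whose reads lie near the 3′ end of messenger RNA. The submitters' processing notes name STAR 2.6.0, featureCounts, DESeq2 1.28.1 and mm10, without roles. The authors deposited a signal for each gene and library, their normalised count, which holds no negative value. In every library 100% of nonzero values were whole multiples of 1 step (tolerance 0.001 reads), and the resulting whole reads fed the count tests.

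Identifiers were paired with symbols through a GENCODE M21 table (GRCm38, the build of mm10); 22649 of 22656 matched. APOE2 and APOE3 groups came from the titles. The test was limma 3.58.1 (R 4.3.3) on log2(normalised count + 1) with an intensity trend, two-sided, with Benjamini-Hochberg adjustment over the 12403 genes with a mean of at least 10 and a threshold of 0.05. Fold changes are on that scale and understate changes of low genes. P-values measure the spread between these libraries, 1 per mouse by the series' design text. There were 26 alternatives: edgeR 4.0.16 and DESeq2 1.42.0 on recovered reads, other pseudocounts, filters, scalings and variance models, the replicate number as a block, the epithelial covariate, and libraries left out. The members and lists were chosen with earlier results of these data known. Each APOE3 value and the lowest, median and highest APOE2 value are given for the 6 sterol and 4 fatty acid members with the smallest p-values and for Srebf1, Srebf2, Insig1, Scap and Mbtps1, the other members are given by their range in each group, and of the further list the 4 genes with the smallest p-values are named. That list does not hold every known SREBP target. The APOE3 values of Scd2 and the libraries singled out in other members were chosen after their values were seen.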

Additional observations from a re-analysis of the deposited data

Results flagged for a closer look

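In each group of libraries, on log2 values, the gap from the highest or lowest library to its nearest neighbour was set against the group's range (Dixon's 95% critical value) for the members, the 4 further genes and the 2 arm means. Of 76 such screens 5 stood apart, where chance gives about 3.8. They were APOE3 replicate 2 in Pmvk (321 normalised counts, low), Fdps (595.5, high) and Srebf1 (101, low), APOE3 replicate 5 in Fads2 (13.9, low) and APOE2 replicate 3 in Scap (1602, high). Neither arm mean stood apart in any library.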

How the results depend on the processing

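The call of Scd1 held in 11 of the 13 alternatives that left out 1 library and in 9 of the 13 others; with 1 library left out members past the threshold ranged from 0 to 1. Its adjusted p was 0.0696 with no filter on low values, 0.127 in limma without the trend, 0.0822 without APOE3 replicates 2 and 3 and 0.675 with the epithelial covariate, and each of these left 0 members past the threshold. Without 1 library in turn its log2 fold change ran from −0.97 to −0.67. Genes past the threshold over the whole table were 98, then 9 with no filter, 0 in limma without the trend (1599 at an unadjusted p-value under 0.05), 316 by DESeq2, 0 with the covariate (861 at an unadjusted p-value under 0.05), 1 without APOE3 replicates 2 and 3, and 9 (without APOE3 replicate 3) to 228 (without APOE3 replicate 1) with 1 library left out. With equal library totals the split of 51 higher and 47 lower genes was 38 and 54; by TMM scaling it was 68 and 46, and by edgeR 57 and 81.

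The values showed no pairing by replicate number. Correlations of same-numbered libraries ran from −0.0628 to 0.0141, and 0 of 5 APOE3 libraries matched best with their own number. The titles do not say what the numbers stand for, so a pairing is not excluded. With the replicate block 43 genes passed, Scd1 among them, and Fads2 was at −0.039.

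The covariate moved the sterol median to −0.55 and the difference between arm medians to −0.42; that difference ran from −0.16 to 0.056 with 1 library left out. Genes below 0 in the fatty acid arm were 8 without APOE3 replicates 2 and 3, and 5 to 8 with 1 library left out. Sign changes by alternative, all in genes that never passed, were as follows. With the covariate Lss was at −0.30, Scap −0.039, Srebf1 −0.13 and Scd2 −0.095. Without APOE3 replicates 2 and 3 Scap was at −0.033, Srebf1 −0.033, Scd2 −0.17 and Elovl6 −0.014. Fads2 was at −0.11 by edgeR and −0.11 by DESeq2. With 1 library left out, ranges were −0.21 to 0.093 for Fdft1, −0.066 to 0.16 for Lss, −0.15 to 0.0017 for Cyp51, −0.37 to 0.030 for Hsd17b7, −0.019 to 0.39 for Srebf1, −0.084 to 0.21 for Scd2, −0.015 to 0.19 for Elovl6 and −0.45 to 0.27 for Fads2. Npc1 passed by DESeq2 (adjusted p = 0.0224) and without APOE2 replicate 6 (0.0327), and Elovl1 by DESeq2 (0.0182) and with equal totals (0.0484). Of 35 genes given, 23 kept direction and side of the threshold in every alternative run. The cause of these changes was not tested.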
